A study of Sus scrofa with 3 samples.

Results

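The let-7 and miR-98 family is a group of microRNAs (miRNAs), short RNAs that lower the output of messenger RNAs they pair with. Its members in these pig liver libraries were ssc-let-7a, ssc-let-7c, ssc-let-7d-5p, ssc-let-7d-3p, ssc-let-7e, ssc-let-7f, ssc-let-7g, ssc-let-7i and ssc-miR-98, taken by name from the deposited count tables, where the prefix ssc- stands for Sus scrofa. They are 9 of 405 miRNAs kept here and fill 11 of 486 deposited rows, because let-7a and let-7f each come from 2 precursors. Both arms of the let-7d hairpin are members, each with its own row. Liver small RNA was sequenced from male pigs at postnatal day 90, as 1 library each from the Enshi black pig (domestic, from China), the Chinese wild boar and the Large White pig (commercial, from Europe). The labels describe 3 male pigs and 3 liver samples without saying outright that each library is 1 animal, and no group carries a treatment or an engineered allele. The comparisons address how the liver miRNA profile differs between breeds at 1 age, and with 1 library per breed none has a replicate check.

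let-7 was first known as a timing gene of worm larvae, and in mammals its members accumulate as tissues mature. The RNA-binding protein LIN28, typical of embryonic cells, blocks processing of let-7 precursors, and let-7 in turn represses LIN28 messenger RNA. Further known targets are the growth regulator HMGA2 and, in mouse and human cells, insulin pathway components such as the insulin and IGF1 receptors. The 5p members share a seed, the stretch near the 5′ end that selects targets, and differ from each other at few positions outside it. let-7d-3p comes from the opposite strand of its hairpin and has a different seed.

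Because the mature sequences are so alike, the counts depend on how reads that match more than 1 member were divided. The deposited read counts have 2 decimals, and 8 of the 9 members were more than 0.05 from a whole number in at least 1 library. Only let-7d-3p was whole in all libraries, with 468, 577 and 289 reads in the Enshi black, wild boar and Large White libraries. The decimals closed within the family. Summed over all 11 rows, the family held 631791.00 reads in the Enshi black library, 647971.01 in the wild boar library and 466207.01 in the Large White library. These sums were at most 0.01 from a whole number. The 10 rows of the 5p members have 1022 smaller subsets, and 0 of these summed to whole numbers in all libraries when 0.005 was allowed per row for rounding. Between 30 and 59 subsets did so in any 1 library. So far as the decimals show, a total over the family is free of the division of reads among its members, while a single member's value is not. How many reads were divided cannot be read from the decimals.

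The 2 precursors of let-7a carried nearly the same count. In the Enshi black library the let-7a-1 row held 116100.15 reads and the let-7a-2 row 116294.65, a difference of 0.0837% of the member. The 2 rows differed by 59 reads (0.0206%) in the wild boar library and by 189 reads (0.124%) in the Large White library. The 2 precursors of let-7f were less even. The let-7f-1 row took 51.7% of let-7f in the Enshi black library, 51.3% in the wild boar library and 51.5% in the Large White library. These rows can say little about which of the 2 genes was more active, since both give the same mature sequence.

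The family was a large part of the liver miRNA pool. In the Enshi black library it took 8.17% of all miRNA reads (95% interval 8.15 to 8.19, by the exact Clopper-Pearson method), 8.28% in the wild boar library (8.26 to 8.30) and 6.35% in the Large White library (6.33 to 6.37). Totals were 7730934, 7824836 and 7343033 reads in the same libraries, so intervals are narrow, and they cover counting error only, since reads without molecular identifiers are not independent molecules. The liver-enriched miR-122 and miR-885-5p together took 34.2%, 39.5% and 41.4% of reads in the same order. Without miR-122 in the denominator the family's share was 12.4% in the Enshi black library, 13.7% in the wild boar library and 10.8% in the Large White library. By either denominator the share was lowest in the Large White library.

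ssc-let-7a was the most abundant member in every library. Levels are given in CPM, read counts per 1000000 reads of a library, after scaling by TMM (the trimmed mean of M-values, which evens out the bulk of miRNAs). let-7a held 25016 CPM in the Enshi black library, 34049 CPM in the wild boar library and 26858 CPM in the Large White library. It ranked 7th, 6th and 7th among all miRNAs. ssc-let-7c stood second, with 12955 CPM in the Enshi black library, 17537 CPM in the wild boar library and 17241 CPM in the Large White library. The Enshi black library was the low one for let-7c, and the other two were close to each other.

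ssc-let-7f held 12010 CPM in the Enshi black library, 9426 CPM in the wild boar library and 16270 CPM in the Large White library. let-7g held 7937, 6315 and 10650 CPM, and let-7i 6090, 5336 and 7612 CPM, in the same libraries. All 3 of these members, and miR-98 with 310 CPM in the Enshi black library, 273 CPM in the wild boar library and 425 CPM in the Large White library, had the same order, with the wild boar library lowest and the Large White library highest.

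let-7d-5p had 2595 CPM in the Enshi black library, 2392 CPM in the wild boar library and 2110 CPM in the Large White library, so here the Large White library was lowest. let-7e had 1045 CPM in the Enshi black library, 1462 CPM in the wild boar library and 982 CPM in the Large White library. The wild boar library was highest for let-7e, as it was for let-7a. let-7d-3p was the rarest member, at 50.4 CPM in the Enshi black library, 68.4 CPM in the wild boar library and 51.0 CPM in the Large White library. From let-7a to let-7d-3p the counts within a library spanned 497-fold in the Enshi black, 498-fold in the wild boar and 527-fold in the Large White library.

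**Figure D1:**
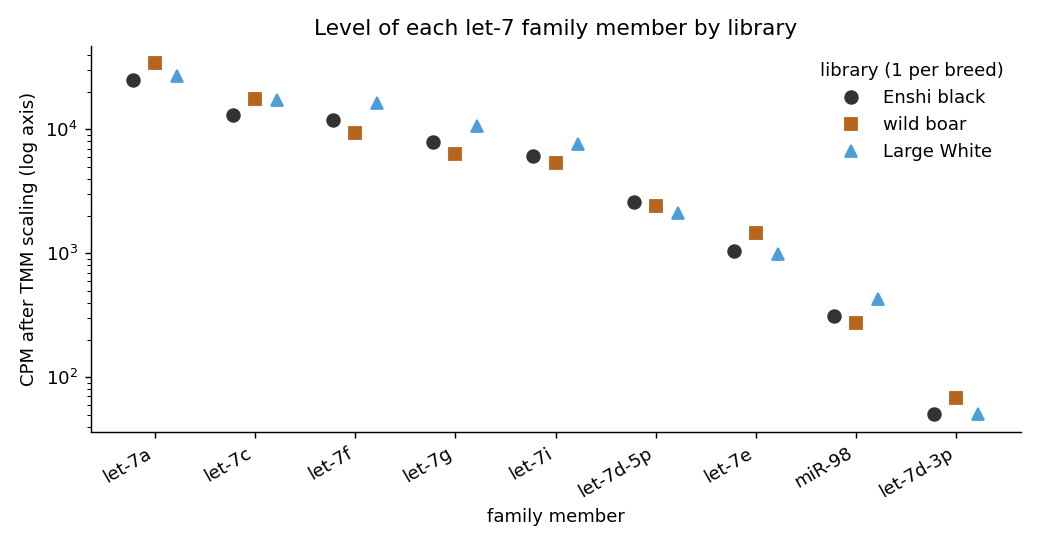
CPM after TMM scaling (log axis) of the 9 family members, with 1 point per library for the Enshi black, wild boar and Large White livers. The order of members is the same in each library, let-7a is highest and let-7d-3p lowest, and the wild boar point is the lowest of its trio for let-7f, let-7g, let-7i and miR-98.

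The rank of the members within the family was the same in all libraries, namely let-7a, let-7c, let-7f, let-7g, let-7i, let-7d-5p, let-7e, miR-98 and let-7d-3p. The 3 most abundant, let-7a, let-7c and let-7f, together made up 73.5% of family reads in the Enshi black library, 79.4% in the wild boar library and 73.4% in the Large White library. A member's share of the family total does not depend on the scaling between libraries, though it still depends on how shared reads were divided among the members.

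The composition differed most between the wild boar library and the other two. let-7a made up 36.8% of family reads in the Enshi black library (36.7 to 36.9), 44.3% in the wild boar library (44.2 to 44.4) and 32.7% in the Large White library (32.5 to 32.8). let-7c made up 19.05% in the Enshi black library (18.95 to 19.15), 22.8% in the wild boar library (22.7 to 22.9) and 21.0% in the Large White library (20.9 to 21.1). let-7e, a rarer member, made up 1.54%, 1.90% and 1.19% in the same order. All 3 of these members had their largest share in the wild boar library.

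let-7f made up 17.7% of the family in the Enshi black library (17.6 to 17.8), 12.3% in the wild boar library (12.2 to 12.3) and 19.8% in the Large White library (19.7 to 19.9). let-7g had shares of 11.7%, 8.22% and 13.0%, let-7i shares of 8.95%, 6.94% and 9.26%, and miR-98 shares of 0.456%, 0.356% and 0.517%, in the same libraries. These 4 members had their smallest share in the wild boar library. Grouped after these values were seen, let-7a, let-7c and let-7e together made up 57.4% of the family in the Enshi black library, 69.0% in the wild boar library and 54.8% in the Large White library. let-7f, let-7g, let-7i and miR-98 together made up 38.7%, 27.8% and 42.5%. let-7d-5p belonged to neither group, with 3.82% in the Enshi black, 3.11% in the wild boar and 2.57% in the Large White library.

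**Figure D2:**
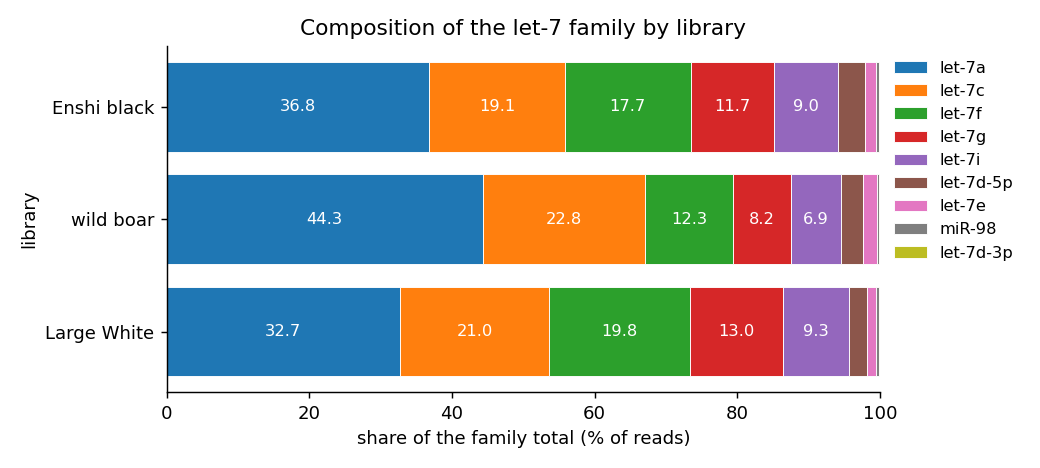
Share of each member in the family total (% of reads), with 1 stacked bar per library and shares above 5% printed. The let-7a and let-7c segments are longest in the wild boar bar, at 44.3% and 22.8%, and the let-7f, let-7g and let-7i segments are shortest there.

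Ratios of 2 members within a library likewise need no scaling. The ratio of let-7a to let-7f was 2.08 in the Enshi black library (exact conditional-binomial 95% interval 2.07 to 2.10), 3.61 in the wild boar library (3.58 to 3.64) and 1.65 in the Large White library (1.64 to 1.66). let-7c to let-7g was 1.63 in the Enshi black (1.62 to 1.65), 2.78 in the wild boar (2.75 to 2.81) and 1.62 in the Large White library (1.60 to 1.64). The intervals of the 2 domestic breeds overlapped for let-7c to let-7g but not for let-7a to let-7f.

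Other members kept nearly fixed proportions. let-7f to let-7g was 1.51 in the Enshi black (1.499 to 1.527), 1.49 in the wild boar (1.48 to 1.51) and 1.53 in the Large White library (1.51 to 1.54), so the highest was 1.02 times the lowest. Of the 28 pairs among the 8 5p members, this pair varied least. let-7i to miR-98 came next, at 19.6, 19.5 and 17.9 in the same order. At the other end, let-7e to let-7f was 0.0870 in the Enshi black, 0.155 in the wild boar and 0.0603 in the Large White library, a span of 2.57-fold. In 18 of the 28 pairs the highest ratio was more than 1.5 times the lowest, and 1 of the 2 extremes was in the wild boar library in 17 of these, in the Large White library in 16 and in the Enshi black library in 3. The 28 pairs share their 8 members and are not independent.

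Set against the Large White library, the Enshi black library had a larger share of let-7d-5p, let-7e, let-7d-3p and let-7a within the family and a smaller share of the other 5 members. The largest ratio of shares was that of let-7d-5p, which made up 3.82% of the family in the Enshi black library and 2.57% in the Large White library, 1.49 times as much. Shares of let-7e stood 1.29-fold apart, those of let-7d-3p 1.195-fold and those of let-7a 1.13-fold. For let-7d-3p the intervals of the shares overlapped, at 0.0675% to 0.0811% in the Enshi black and 0.0551% to 0.0696% in the Large White library. On the side of smaller shares, the ratios were 0.967 for let-7i, 0.908 for let-7c, 0.901 for let-7g, 0.892 for let-7f and 0.883 for miR-98.

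Set against the Large White library, the wild boar library had a larger share of 5 members and a smaller share of 4. The ratios of shares were 1.59 for let-7e, 1.44 for let-7d-3p, 1.36 for let-7a, 1.21 for let-7d-5p and 1.09 for let-7c. They were 0.750 for let-7i, 0.688 for miR-98, 0.634 for let-7g and 0.620 for let-7f. In share of the family, let-7a stood 11.6 percentage points higher and let-7f differed by -7.53 points, wild boar minus Large White.

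Between the Chinese livers, the Enshi black library exceeded the wild boar library in shares of let-7f (1.44-fold), let-7g (1.42-fold), let-7i (1.29-fold), miR-98 (1.28-fold) and let-7d-5p (1.23-fold). Its shares of let-7c, let-7d-3p, let-7a and let-7e were smaller, with ratios of 0.835, 0.832, 0.830 and 0.808. This comparison and the 2 above share libraries, so they are not independent of each other.

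**Figure D3:**
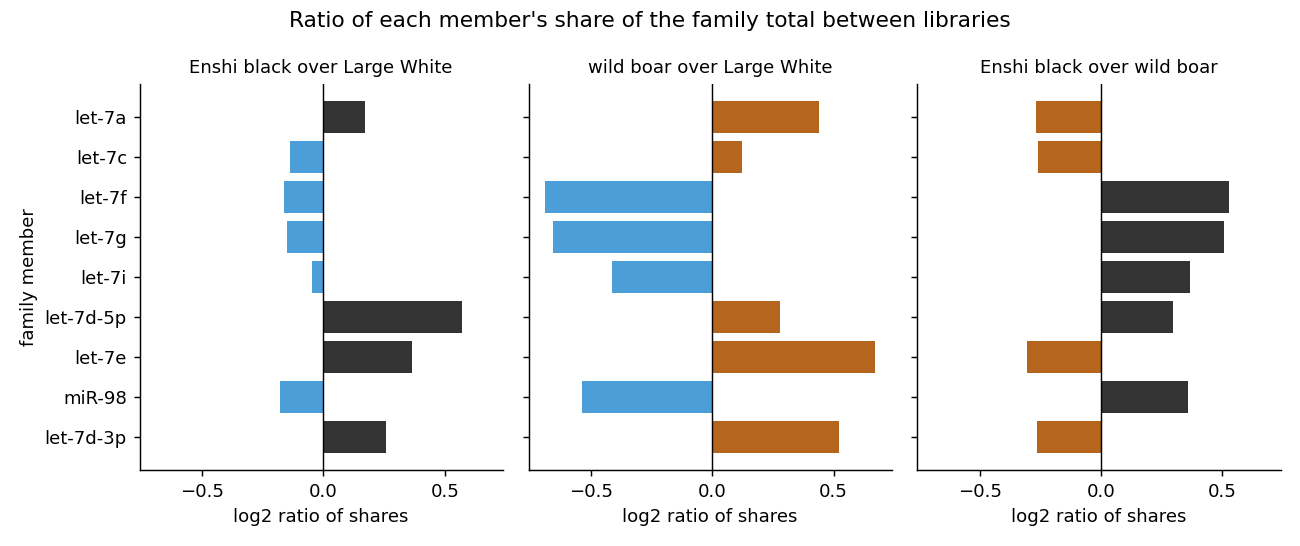
The log2 ratio of each member's share of the family total, in 1 panel per pair of libraries, with bars in the colour of the library with the larger share. The longest bars are those of let-7f at -0.69 and let-7e at 0.67 in wild boar over Large White.

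Between libraries, no member reached the 2-fold set as the mark for a difference after TMM scaling. The mark asks for a ratio of 2-fold or more whose 95% interval excludes equality. After TMM scaling 0 of 9 members reached it in Enshi black over Large White, where 13% of the 208 miRNAs compared did. In wild boar over Large White it was 0 of 9, against 25% of all miRNAs, and in Enshi black over wild boar 0 of 9, against 12.5%. With only 9 members, a count of 0 beside these shares is not read as a trait of the family. All 9 members passed the minimum of 10 mean CPM needed for the comparison. On library totals without TMM scaling, let-7e alone passed the mark, with a 2.08-fold ratio of wild boar over Large White (2.01 to 2.14), where 30.8% of all miRNAs passed. Of the 208 miRNAs, 65 were more than 0.05 from a whole number in at least 1 library. These hold reads shared with another name, and others may too, since shared reads can sum to whole numbers.

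The direction of the whole family against the Large White library rested on the scaling. After TMM, the family held 68009 CPM in the Enshi black library, 76858 CPM in the wild boar library and 82199 CPM in the Large White library. The ratio of Enshi black over Large White was 0.827 (0.824 to 0.831), but 1.29 on library totals. That of wild boar over Large White was 0.935 (0.931 to 0.939), but 1.30 on library totals. TMM moved the log2 ratios of these pairs by -0.64 and -0.48, and on library totals the median miRNA stood at 0.60 and 0.46. Relative to the median miRNA, which no scaling changes, the family had log2 ratios of -0.23 in Enshi black over Large White and -0.08 in wild boar over Large White. Enshi black over wild boar was 0.885 (0.882 to 0.888) after TMM and 0.987 on library totals, with -0.17 relative to the median miRNA.

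Member by member, relative to the median miRNA, the Enshi black library was below the Large White library for 6 of 9 members. miR-98, let-7f, let-7g, let-7c, let-7i and let-7a had values from -0.41 to -0.06, and let-7d-5p, let-7e and let-7d-3p values of 0.34, 0.13 and 0.02 on the log2 scale. On library totals all 9 members had higher levels in the Enshi black library, so no member's direction in this pair should be read without its scaling. let-7d-5p, at 1.23-fold after TMM (1.20 to 1.26) and 1.91-fold on library totals, and let-7e, at 1.06-fold (1.030 to 1.100) and 1.66-fold, were higher in the Enshi black library both ways. The median log2 ratio of the 9 members after TMM was -0.32, beside -0.04 over all 208 miRNAs.

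In wild boar over Large White, the members split in the same way under TMM, library totals with and without miR-122, DESeq2 size factors and relative to the median miRNA. let-7e (1.49-fold after TMM, 1.44 to 1.54), let-7d-3p (1.34-fold, 1.16 to 1.55), let-7a (1.27-fold, 1.26 to 1.28), let-7d-5p (1.13-fold, 1.11 to 1.16) and let-7c (1.02-fold, 1.009 to 1.025) were higher in the wild boar library under each. let-7f, let-7g, miR-98 and let-7i were lower under each. let-7f had a ratio of 0.579 after TMM (0.574 to 0.585) and 0.808 on library totals. let-7g had 0.593 (0.586 to 0.600) and 0.827, miR-98 had 0.643 (0.607 to 0.681) and 0.897, and let-7i had 0.701 (0.692 to 0.710) and 0.978. The log2 ratios of the 9 members had an SD of 0.54 after TMM, beside 0.96 over all 208 miRNAs, and a median of 0.02, beside -0.02.

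In Enshi black over wild boar, the signs of all 9 members likewise held under those scalings. let-7f (1.27-fold after TMM, 1.26 to 1.29), let-7g (1.26-fold, 1.24 to 1.27), let-7i (1.14-fold, 1.13 to 1.16), miR-98 (1.14-fold, 1.07 to 1.20) and let-7d-5p (1.08-fold, 1.06 to 1.11) were higher in the Enshi black library. let-7a, let-7c, let-7d-3p and let-7e were lower, with ratios from 0.715 for let-7e to 0.739 for let-7c. The median log2 ratio of the members was 0.12, beside -0.01 over all miRNAs, and their SD 0.37, beside 0.70.

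**Figure D4:**
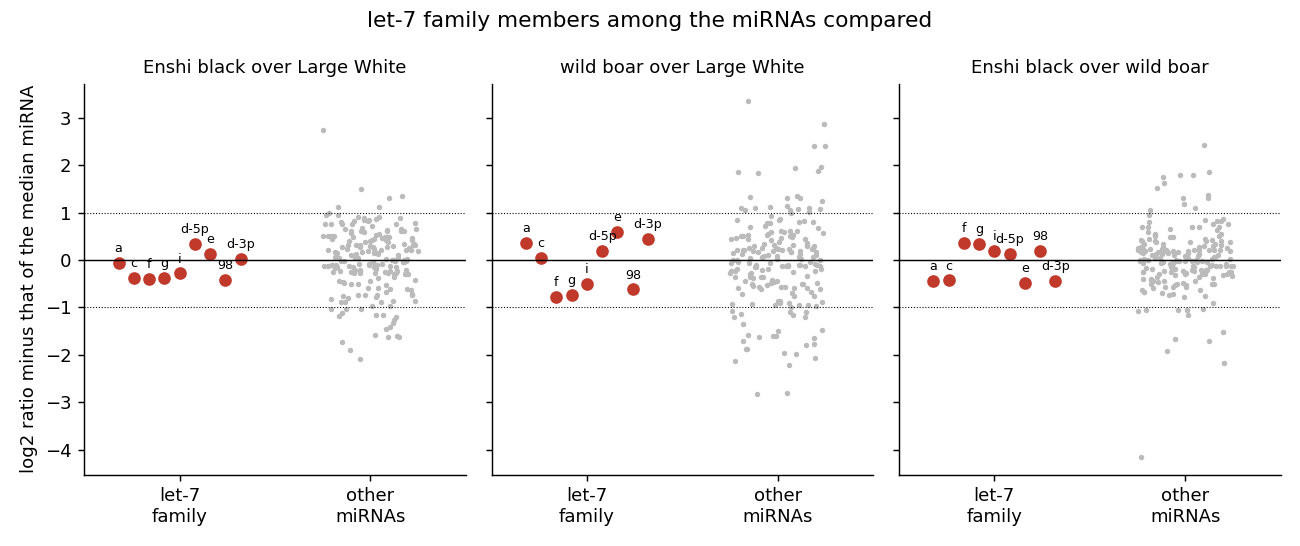
Log2 ratio minus that of the median miRNA in 3 pairs of libraries, with family members as labelled points beside the other miRNAs of the 208 compared, and dotted lines 1 log2 unit from the median. Every family member lies between the dotted lines in each panel.

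let-7 genes often lie beside genes of the miR-99, miR-100 and miR-125 families, which are processed from shared transcripts in several mammals. All 10 family precursors matched a name in the RefSeq annotation of Sscrofa 11.1. There let-7c neighbours miR-99a, let-7e neighbours miR-99b and miR-125a, let-7a-1 neighbours miR-100 and miR-125b-1, let-7a-2 neighbours let-7f-2 and let-7d, and miR-98 neighbours let-7f-1, all within 100 kb. let-7i had no miRNA gene within that distance, and let-7g had miR-135-1.

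let-7c and miR-99a had almost equal counts. let-7c held 120353 reads and miR-99a 120410 reads in the Enshi black library, 147847 and 138240 in the wild boar library, and 97786 and 91850 in the Large White library. The ratio of let-7c to miR-99a was 0.9995 in the Enshi black (0.992 to 1.008), 1.07 in the wild boar (1.06 to 1.08) and 1.06 in the Large White library (1.055 to 1.074). miR-125b, counted over its 2 precursors, was also close, with a ratio of let-7c to miR-125b of 0.974, 1.05 and 1.07 in the same order. Equal read counts do not show equal molecule numbers, because ligation favours some small RNAs over others.

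The other pairs of neighbours varied to different degrees. let-7a to miR-125b was 1.88 in the Enshi black (1.87 to 1.89), 2.04 in the wild boar (2.03 to 2.06) and 1.67 in the Large White library (1.655 to 1.682). let-7a to miR-100 was 13.1 in the Enshi black library (12.9 to 13.3), 20.3 in the wild boar library (19.99 to 20.68) and 21.6 in the Large White library (21.1 to 22.1). let-7e to miR-125a was 0.547 in the Enshi black (0.534 to 0.561), 1.004 in the wild boar (0.979 to 1.03) and 0.708 in the Large White library (0.684 to 0.733). let-7e to miR-99b was 4.003, 5.45 and 5.12 in the same order. let-7a is counted over 2 precursors with different neighbours, so its ratios to miR-100 and miR-125b mix both genes. miR-98 and let-7f, neighbours on 1 side through let-7f-1, had a ratio of let-7f to miR-98 of 38.7 in the Enshi black, 34.5 in the wild boar and 38.3 in the Large White library.

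**Figure D5:**
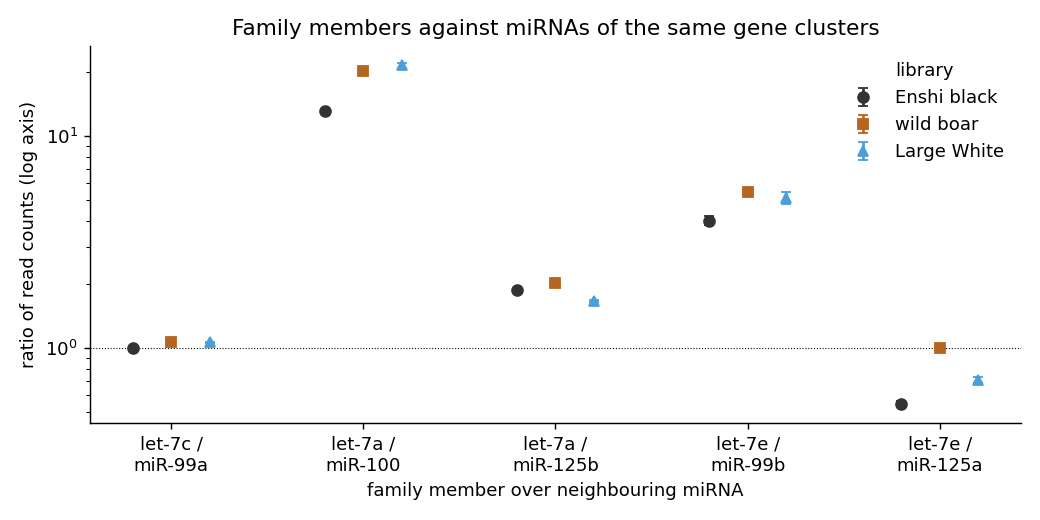
Ratio of read counts (log axis) of a family member to a miRNA of a neighbouring gene, with 1 point per library and exact 95% intervals that cover counting error only. let-7c to miR-99a lies at 0.9995 to 1.069 in all libraries, while let-7e to miR-125a runs from 0.547 in the Enshi black to 1.004 in the wild boar library.

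Of the 5 neighbouring miRNAs, 0 were at least 2-fold higher or lower in any pair after TMM, where 13%, 25% and 12.5% of all miRNAs were in Enshi black over Large White, wild boar over Large White and Enshi black over wild boar. On library totals 3 of the 5, miR-100, miR-125a and miR-99b, were at least 2-fold higher in Enshi black over Large White, at log2 ratios of 1.25, 1.10 and 1.08, where 30.3% of all miRNAs passed. None of the 5 passed in the other pairs on library totals. In Enshi black over Large White, miR-100 was 1.53-fold (1.49 to 1.58), miR-125a 1.38-fold (1.34 to 1.41) and miR-99b 1.36-fold (1.27 to 1.46), while miR-99a and miR-125b had ratios of 0.800 and 0.826. The median log2 ratio of the 5 was 0.44 there, 0.07 in wild boar over Large White and -0.04 in Enshi black over wild boar. On library totals these medians were 1.08, 0.55 and 0.12.

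let-7d was the 1 hairpin with both arms among the members. The 3p arm made up 1.90% of let-7d reads in the Enshi black library (1.74 to 2.08), 2.78% in the wild boar library (2.56 to 3.02) and 2.36% in the Large White library (2.10 to 2.64). The interval of the Enshi black library, with its upper limit at 2.083%, narrowly missed that of the Large White library, which began at 2.097%. The intervals of the wild boar and Large White libraries overlapped. All of them cover counting error only, so they do not address a difference between breeds. The 5p counts were also not whole in the Enshi black and wild boar libraries, at 24108.67 and 20165.67 as deposited. The 5p arm was thus the main product in each liver, and its counts were 24109, 20166 and 11966 reads.

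Among 122 other miRNAs of at least 100 mean CPM, miR-148a-3p had the profile nearest to the family total over the 3 libraries, by Euclidean distance between the 2 log2 ratios to the Large White library. It held 16482 CPM in the Enshi black library, 18882 CPM in the wild boar library and 20247 CPM in the Large White library, at a distance of 0.02. miR-26a followed at 0.11, with 41321, 47979 and 48129 CPM in the same order, and then miR-769-5p, miR-30e-3p and miR-423-5p at 0.11 to 0.12. A likeness over 3 libraries rests on 2 values per miRNA and is a description only.

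Markers of other cells also differed between the libraries. Endothelial miR-126-3p and miR-126-5p summed to 1.96% of reads in the Enshi black, 1.31% in the wild boar and 0.779% in the Large White library. The 4 stellate cell and smooth muscle miRNAs summed to 5.10%, 3.66% and 2.44%, the 3 red cell miRNAs to 0.494%, 0.336% and 0.411%, and the 4 leucocyte miRNAs of 5 listed that have a row to 1.29%, 0.386% and 1.59%, in the same order. After TMM the red cell sum was instead highest in the Large White library, at 4114 CPM in the Enshi black library, 3114 CPM in the wild boar library and 5324 CPM in the Large White library. The order of the other 3 of these sums was the same after TMM. Not every marker followed its sum. After TMM, miR-150 had a log2 ratio of 0.18 in Enshi black over Large White. There miR-142-3p, miR-142-5p and miR-155-5p had -1.07, -0.56 and -0.62. In Enshi black over wild boar, the red cell miR-486 had -0.14, beside 0.69 for miR-144 and 0.38 for miR-451. No marker with a row was at 0 in any library. The part of cell makeup in the let-7 composition was not tested, and in bulk tissue fewer cells of a type and less RNA per cell cannot be told apart.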

How the data were processed

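Small RNA of 14 to 40 nucleotides from liver was sequenced as 1 library per breed, per the labels' protocols. The submitters' processing notes name the build Sscrofa 10.2. For the aligner, the counter and the miRNA annotation, nothing is given in the sources. The deposited files hold expected counts, with 2 decimals, per mature miRNA and precursor, per the file headers. The deposited RPM values, which the counts divided by their sum give, were not used.

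Read counts were summed over precursors and rounded. Names that repeat the reads of another (6) were left out, leaving 405 miRNAs, and the 208 with a mean CPM of at least 10 on library totals were compared. CPM were scaled by TMM (edgeR 4.0.16, R 4.3.3), with factors of 1.20, 1.08 and 0.772 for Enshi black, wild boar and Large White. Ratios have exact conditional-binomial and shares exact Clopper-Pearson 95% intervals (SciPy 1.17.1). With 1 library per breed no p-value was computed. A miRNA was called at 2-fold or more with an interval leaving out 1. This rule was checked only on simulated libraries with counting noise, which cannot show how it does under variation between animals. All members, 5 neighbouring miRNAs and the 5 nearest profiles of at least 100 mean CPM are named. Members, lists and rules were chosen with earlier results of these data known. Mature sequences were not used here, so a planned search for further miRNAs with the let-7 seed was not run. Neighbours come from RefSeq's Sscrofa 11.1 by name, whose build differs from that of the files.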

Additional observations from a re-analysis of the deposited data

How the results depend on the processing

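Of the settings varied, scaling was the one that moved the family ratios. How shared reads were divided among members was not varied. The family ratio of Enshi black over Large White, 0.827 after TMM, was 1.29 on library totals, 1.15 on totals without miR-122, 0.872 with DESeq2 1.42.0 size factors and 0.850 relative to the median miRNA. For wild boar over Large White, 0.935 became 1.30, 1.26, 0.969 and 0.947, and for Enshi black over wild boar, 0.885 became 0.987, 0.908, 0.900 and 0.888, under the same settings in the same order. In Enshi black over Large White, 7 of 9 members had the opposite sign on library totals, with or without miR-122, 1 with DESeq2 size factors and 1 relative to the median miRNA; in the other pairs 0 of 9 did. In wild boar over Large White, the count of members at least 2-fold apart was 0 in the main setting. It was 1 on library totals, 1 on totals without miR-122 and 3 at a 1.5-fold mark. Of all 208 miRNAs, 30.8% passed on library totals. No such share was computed without miR-122 or at the 1.5-fold mark, so these counts are not read as a trait of the family. The count of members at least 2-fold apart was 0 in all pairs with thinned libraries. It was also 0 with no expression minimum, at 100 mean CPM, at 4-fold and without members that share reads, which leaves let-7d-3p only. These last settings could not raise a count of 0, since all 9 members had already passed the minimum. The family's share of reads without miR-122 in the denominator was 12.4% in the Enshi black, 13.7% in the wild boar and 10.8% in the Large White library. All 51 member shares recomputed without let-7d-3p or in thinned libraries stayed within their intervals. Neither change could move a share far, since let-7d-3p made up at most 0.089% of the family and the library totals were close to each other. From the let-7a-1 and let-7f-1 rows, let-7a to let-7f was 2.01, 3.52 and 1.6 in the Enshi black, wild boar and Large White libraries. From the let-7a-2 and let-7f-2 rows it was 2.16, 3.71 and 1.7, beside 2.08, 3.61 and 1.65 in the main setting. The comparison relative to the median miRNA was chosen after seeing the data. No paired analysis was possible because each breed has 1 library. Depth does not limit these values, apart from let-7d-3p with 289 to 577 reads; the missing replicates do.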
